A study of Mus musculus with 9 samples.

Results

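Lymphoid priming genes, which blood progenitors transcribe before they commit to the B or T lineage, were followed in myeloid progenitors (MPs) that carried the Nup98-Hoxa10hd fusion gene (NA) and in WT controls. The genes were chosen by name, with earlier results of these data known. They were Il7r, Notch1, Lck, Ly6d, Ikzf1, Ikzf3, Tcf7, Bcl11a, Satb1 and Foxo1, 10 of the 37980 genes of the deposited table. All 10 were found there, and 8 passed the expression filter. Sequenced RNA of 9 samples, 4 of NA MPs and 5 of WT MPs, came from 100000 sorted Lin-ckit+Sca1- marrow cells each, taken from C57BL/6 mice. The recipients were irradiated adult C57BL/6 mice that had been injected with NA or WT multipotent progenitors (MPPs) together with helper or competitor marrow, and the labels place the sort 3 months after transplantation, whereas the methods give a later month.

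NA cells came from NA LSL/+ mice crossed with Vav-Cre mice, so that the fusion was transcribed from the Rosa26 locus once Cre, active across blood cells, had removed the stop cassette. NA MPs were sorted as Tdtomato+ cells and WT MPs as CD45.2+ cells. The methods describe the recipients as CD45.2+ and follow WT donor cells as CD45.1+, so that by these descriptions the CD45.2+ sort would leave out CD45.1+ donor cells, and the sources do not settle from which cells the WT MPs came. The antibodies that the methods list for MPs cover the lineage antigens Gr1, Mac1, Ter119, B220, CD2, CD8a, CD4 and CD3e, and not IL-7R. The labels do not say whether a sample was taken from a single mouse, so the p-values measure the spread between these samples only. Totals ran from 6602851 to 6734284 expected counts per sample. For pairs of samples of a group, chi-square over genes divided by its degrees of freedom was 1.55 to 2.52 in NA MPs and 1.13 to 1.68 in WT MPs, above the value of 1 that counting alone would give.

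The labels were first checked against the genes of the fusion. Normalized counts, which are counts scaled to a common library size, of Hoxa10 were 156, 124, 120 and 116 in NA MPs and between 5.99 and 12 in WT MPs. Nup98 lay between 841 and 1027 in NA MPs and between 566 and 627 in WT MPs. Both genes were thus higher in every NA MP sample than in any WT MP sample. Of the genes of the sorting gate, Kit was between 2817 and 3141 in NA MPs and between 2976 and 3094 in WT MPs, and Cd3e was at 0 in all 9 samples. Itgam, of the lineage antigen Mac1 that the gate leaves out, was counted in all samples. It lay between 420 and 551 in NA MPs and between 389 and 444 in WT MPs. Mpo, the myeloperoxidase of granulocyte and monocyte progenitors, was the most counted of the neutrophil granule genes, between 102800 and 112400 in NA MPs and between 101000 and 105500 in WT MPs.

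In the marrow, lymphoid potential is set up step by step. Ikaros family factors open lymphoid genes in multipotent cells, IL-7 receptor signalling and Foxo1 then carry cells towards the B lineage, and Notch1 and Tcf7 direct cells that reach the thymus towards the T lineage. Myeloid progenitors normally silence much of this programme, although Ikzf1, Notch1 and Bcl11a are also transcribed outside lymphoid cells.

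Of the 10 genes, Il7r, Lck, Tcf7, Foxo1 and Satb1 were higher in NA MPs, none was lower, Notch1, Ikzf1 and Bcl11a did not pass the threshold, and Ly6d and Ikzf3 were too low to be tested. The threshold was an adjusted p of 0.05 from edgeR's quasi-likelihood test, fitted and adjusted over all 11966 tested genes. By that test 34.2% of the tested genes differed between the groups, 17.9% higher and 16.3% lower in NA MPs, and with library size as the only scaling the balance turned, to 1876 genes higher and 2331 lower in place of 2138 and 1955. Il7r, Lck and Tcf7 were more than 2-fold higher, which held for 2.64% of the tested genes. For the 5 genes called, each NA MP sample was above each WT MP sample, a separation seen for 14.3% of the tested genes and given by 0.794% of the orders of 9 samples. Il7r reached the filter's minimum in 4 NA MP samples and in 0 WT MP samples, so that it could only be tested if it was higher in NA MPs. In these bulk samples, more cells of a type and more RNA per cell cannot be told apart.

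**Figure D1:**
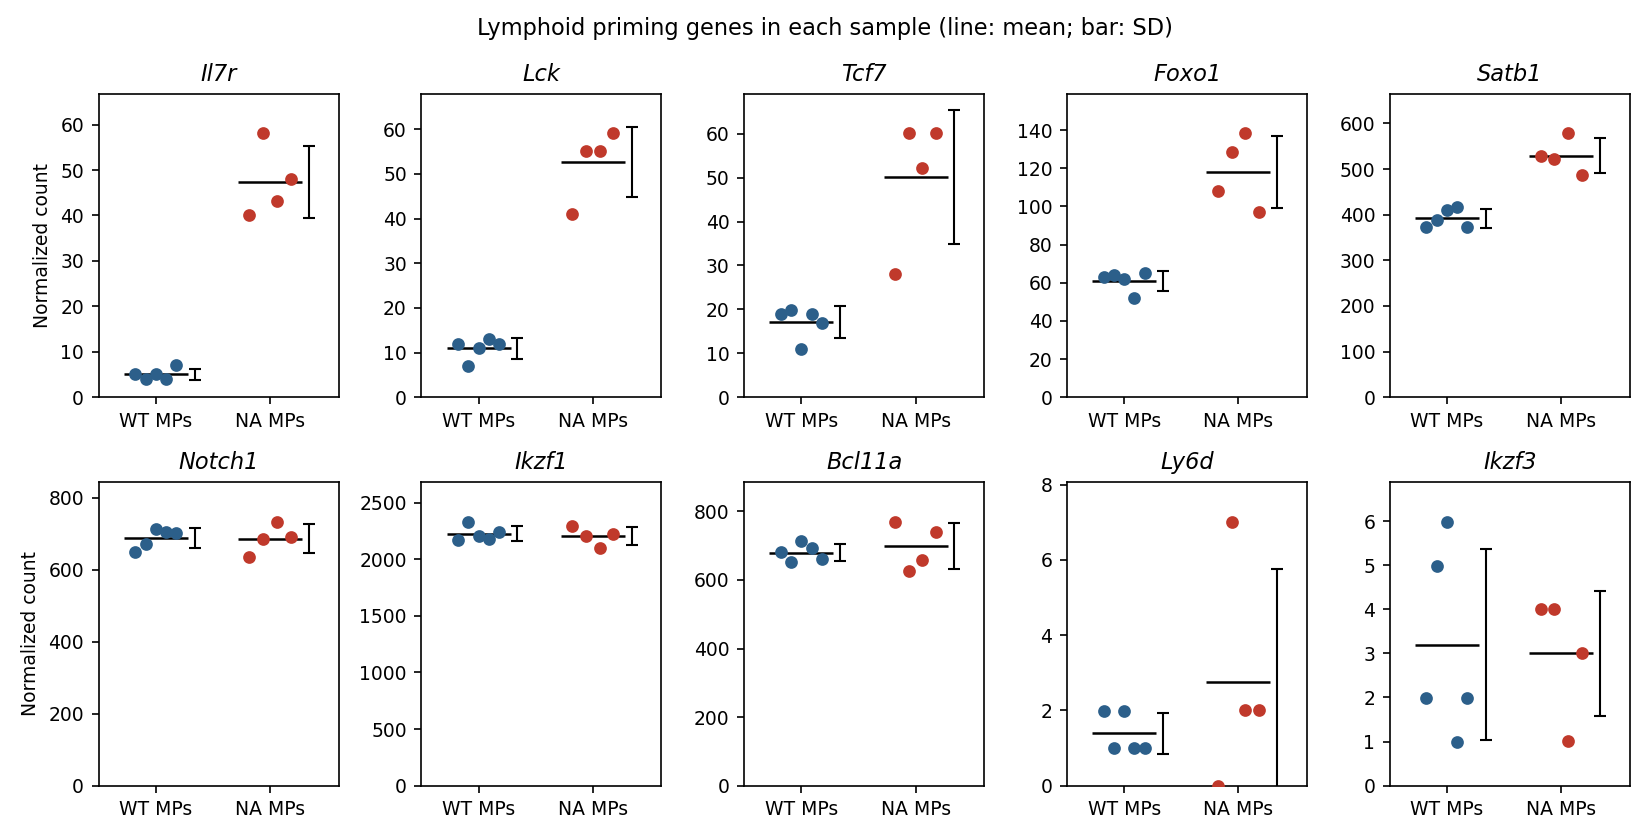
Normalized count of each gene in each sample (points), with the mean of the group (horizontal line) and the SD (bar), on axes that start at 0. Il7r, Lck, Tcf7, Foxo1 and Satb1 have no overlap between WT MPs (blue, 5 samples) and NA MPs (red, 4 samples), while the other 5 genes overlap.

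The stretches before the start sites of Il7r, Lck and Foxo1 are shown because these genes were higher together in NA MPs and stand for the receptor, the kinase and the transcription factors. Each is 240 bases long and is printed 5′ to 3′ on the strand of its gene, from RefSeq's promoter sequences on GRCm38.p6. For Il7r it lies at chr15:9529887-9530126 on the minus strand, inside the gene as GENCODE M21 draws it, with 86 bases in the first exon of a non-coding transcript and the rest in an intron. For Lck, which has 2 entries, the distal start is shown, chr4:129573652-129573891 on the minus strand, and for Foxo1 chr3:52268087-52268326 on the plus strand, both outside any gene of GENCODE M21. Capitals mark matches on either strand to the motifs searched, which were the 10-letter EBF palindrome, TGGGAA (Ikaros), TGTGGT (Runx), GTAAACA (FOXO) and CAGGTG (E2A).
Il7r: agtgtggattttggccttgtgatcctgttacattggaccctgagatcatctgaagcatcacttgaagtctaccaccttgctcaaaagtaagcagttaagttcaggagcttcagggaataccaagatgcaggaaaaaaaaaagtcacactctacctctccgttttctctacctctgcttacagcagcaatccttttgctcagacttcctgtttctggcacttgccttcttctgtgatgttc
Lck: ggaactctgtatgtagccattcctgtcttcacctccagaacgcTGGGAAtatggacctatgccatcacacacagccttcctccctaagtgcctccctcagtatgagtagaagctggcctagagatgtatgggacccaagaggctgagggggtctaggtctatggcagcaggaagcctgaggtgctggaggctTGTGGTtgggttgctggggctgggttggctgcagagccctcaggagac
Foxo1: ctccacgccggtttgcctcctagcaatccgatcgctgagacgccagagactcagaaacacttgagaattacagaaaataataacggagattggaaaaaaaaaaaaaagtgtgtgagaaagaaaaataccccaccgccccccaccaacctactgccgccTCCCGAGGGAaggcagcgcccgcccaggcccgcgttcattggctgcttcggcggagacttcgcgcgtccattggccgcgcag
The Il7r stretch held 0 of these motifs, that of Lck an Ikaros and a Runx motif, and that of Foxo1 an EBF motif. The other Lck entry, chr4:129558383-129558622, held an E2A motif and neither the Ikaros nor the Runx motif. Of the other genes called, neither Tcf7 entry held any of these motifs, and the Satb1 entries held an E2A motif, an Ikaros motif or none. Of the genes not called, the entry of Bcl11a held an Ikaros motif, and those of Notch1 and Ikzf1 held none. Of 32851 promoters cut to the same length, 0.755% held the EBF motif, 20.8% the Ikaros motif, 13.6% the Runx motif, 3.06% the FOXO motif and 16.6% the E2A motif. A match describes these letters and is not a site of binding, which was not measured. Promoter entries were found for 8 of the 10 genes, Ly6d and Ikzf3 being named only.

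Il7r (ENSMUSG00000003882, chr15:9505788-9530176) encodes the alpha chain of the receptor for IL-7, the cytokine on which early B and T cell precursors depend. Its normalized counts were 40.1, 58.1, 43.1 and 48.1 in NA MPs and 4.99, 3.99, 4.99, 3.99 and 6.99 in WT MPs. All NA MP samples were high, none stood apart, and WT MPs were all within a few counts of the detection limit. The means were 47.4 ± 7.89 (SD, n = 4) and 4.99 ± 1.22 (SD, n = 5), and the log2 fold change was 3.22 (standard error 0.25, 95% interval 2.72 to 3.71, adjusted p = 2.62e-15 from edgeR). The exact Poisson interval of the lowest NA MP count, 28.7 to 54.6, lay above that of the highest WT MP count, 2.81 to 14.4, and these intervals cover counting error only.

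Notch1 (ENSMUSG00000026923, chr2:26457903-26516663), the receptor whose signal starts T cell development, showed no such difference. Its normalized counts were 635, 686, 734 and 693 in NA MPs and 649, 672, 713, 705 and 703 in WT MPs. The NA MP samples spanned the whole range of the WT MP samples. The log2 fold change was -0.003 (95% interval -0.09 to 0.09, adjusted p = 0.969 from edgeR), so that a difference of up to 0.09 log2 units in either direction is not excluded.

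Lck (ENSMUSG00000000409, chr4:129548344-129573641) encodes the Src family tyrosine kinase that acts at the T cell receptor and is also found in some early lymphoid and B-1 cells. Samples had normalized counts of 41.1, 55.1, 55.2 and 59.1 in NA MPs and 12, 6.98, 11, 13 and 12 in WT MPs. NA MP replicate 1 was the lowest of its group and was still well above each WT MP sample. The means were 52.6 ± 7.90 (SD, n = 4) and 11 ± 2.34 (SD, n = 5), which is 2.25 log2 units (95% interval 1.84 to 2.66, standard error 0.20, adjusted p = 5.14e-13 from edgeR).

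Ly6d (ENSMUSG00000034634, chr15:74762056-74763620) encodes a GPI-anchored surface protein that marks lymphoid progenitors on their way to B cells. Normalized counts of Ly6d were 0, 7.02, 2.01 and 2 in NA MPs and 2, 0.998, 2, 0.998 and 0.998 in WT MPs. The single higher value belonged to NA MP replicate 2, and NA MP replicate 1 had no count, which allows up to 3.7 counts (upper bound of the 95% interval). Both groups were at or under 3 counts on average, so that no fold is given and a difference was not detectable at this depth.

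Tcf7 (ENSMUSG00000000782, chr11:52252371-52283014) encodes TCF-1, a high mobility group factor of the Wnt pathway that Notch signalling turns on in early T cell precursors and that innate lymphoid precursors also use. Its normalized counts were 28.1, 60.1, 52.2 and 60.1 in NA MPs and 19, 20, 11, 19 and 17 in WT MPs. NA MP replicate 1 was far below the other NA MP samples and the closest to WT MPs, although the groups did not overlap. The log2 fold change was 1.54 (standard error 0.21, 95% interval 1.12 to 1.96, adjusted p = 8.37e-08 from edgeR), and without NA MP replicate 1 it was 1.74.

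Foxo1 (ENSMUSG00000044167, chr3:52268336-52353221) encodes a forkhead factor that activates Il7r and the Rag genes in lymphoid precursors and is held in check by PI3K and Akt. In NA MPs it had normalized counts of 108, 128, 138 and 97.2, and in WT MPs 62.9, 63.8, 61.9, 51.9 and 64.9. Here NA MP replicate 4, not replicate 1, was the lowest NA MP sample, and WT MPs were closely grouped apart from replicate 4. The log2 fold change was 0.95 (standard error 0.11, 95% interval 0.72 to 1.18, adjusted p = 2.21e-09 from edgeR).

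Satb1 (ENSMUSG00000023927, chr17:51736187-51833290) encodes a chromatin organiser that favours the lymphoid fate of stem cells. Its normalized counts were 529, 522, 579 and 486 in NA MPs and 373, 388, 409, 416 and 372 in WT MPs. The groups did not overlap, although the gap between the lowest NA MP and the highest WT MP sample was smaller than the range of NA MPs. The log2 fold change was 0.43 (standard error 0.05, 95% interval 0.33 to 0.54, adjusted p = 3.34e-09 from edgeR), the smallest of the 5 genes called.

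Ikzf1 (ENSMUSG00000018654, chr11:11685003-11772926) encodes Ikaros, the zinc finger factor that opens lymphoid genes in multipotent progenitors. Its normalized counts ran from 2099 to 2289 in NA MPs and from 2170 to 2332 in WT MPs, with -0.01 log2 units between the groups (95% interval -0.08 to 0.05, adjusted p = 0.757 from edgeR). Bcl11a (ENSMUSG00000000861, chr11:24078056-24174123), a zinc finger repressor required for B cell and early lymphoid development, ran from 627 to 770 in NA MPs and from 651 to 714 in WT MPs. Its log2 fold change was 0.04 (95% interval -0.06 to 0.14, adjusted p = 0.567 from edgeR). For both genes the samples of the groups were interleaved, and the intervals exclude changes of the size seen for Satb1.

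Ikzf3 (ENSMUSG00000018168, chr11:98464902-98546031), which encodes Aiolos, the Ikaros family member of committed B cells, was close to the detection limit in both groups. Its normalized counts were 4.01, 4.01, 1 and 3.01 in NA MPs and 2, 4.99, 5.99, 0.998 and 2 in WT MPs. High and low samples occurred in both groups, and no difference was detectable at this depth.

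**Figure D2:**
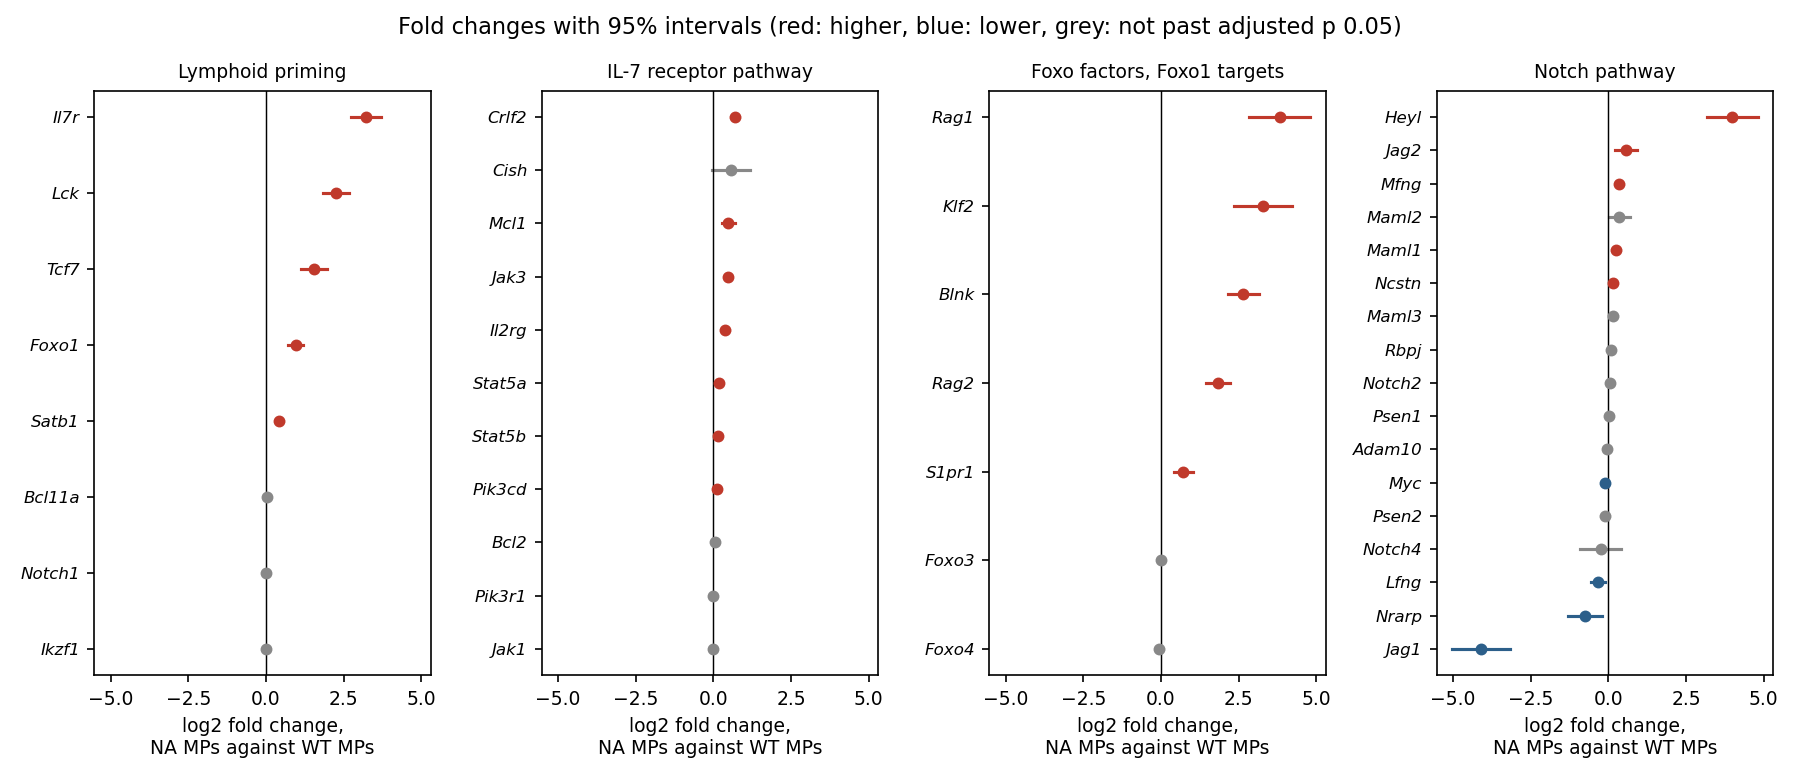
Log2 fold change of NA MPs against WT MPs (point) with its 95% interval (line) for the tested lymphoid priming genes and for tested genes of the IL-7 receptor, Foxo and Notch lists, on the same axis. Il7r lies at 3.22 and Ikzf1 at -0.01, the IL-7 receptor list stays between -0.02 and 0.69, and the Notch list reaches furthest down at Jag1 and furthest up at Heyl, which rest on very few counts in the lower group.

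Levels were compared between genes per kilobase of annotated exon, as normalized counts per kb. In WT MPs the order was Ikzf1 (385), Bcl11a (51.6), Notch1 (48.4), Satb1 (20.6), Foxo1 (7.05), Tcf7 (6.54), Lck (3.75), Ly6d (1.88), Il7r (1.07) and Ikzf3 (0.365). In NA MPs it was Ikzf1 (381), Bcl11a (53.1), Notch1 (48.3), Satb1 (27.8), Tcf7 (19.1), Lck (18), Foxo1 (13.6), Il7r (10.2), Ly6d (3.70) and Ikzf3 (0.344). The top of the order was therefore the same in both groups. Of the genes higher in NA MPs, Satb1 stood in this shared part, directly after Notch1, and the other 4 came after Satb1. Some neighbours did not differ beyond the spread of the samples. Over WT MP samples Bcl11a (49.4 to 54.2) overlapped Notch1 (45.6 to 50.1), Foxo1 (5.99 to 7.49) overlapped Tcf7 (4.18 to 7.60), Tcf7 overlapped Lck (2.38 to 4.43), and Ly6d (1.34 to 2.68) overlapped both Lck and Il7r (0.856 to 1.5). Over NA MP samples Bcl11a (47.6 to 58.5) overlapped Notch1 (44.6 to 51.6). Likewise Tcf7 (10.7 to 22.9), Lck (14 to 20.2) and Foxo1 (11.2 to 16) overlapped each other, Il7r (8.60 to 12.5) overlapped Foxo1 and Tcf7, and Ly6d (0 to 9.43) overlapped Il7r and Ikzf3 (0.115 to 0.458). Even in NA MPs, Il7r thus remained far below Ikzf1 per length.

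**Figure D3:**
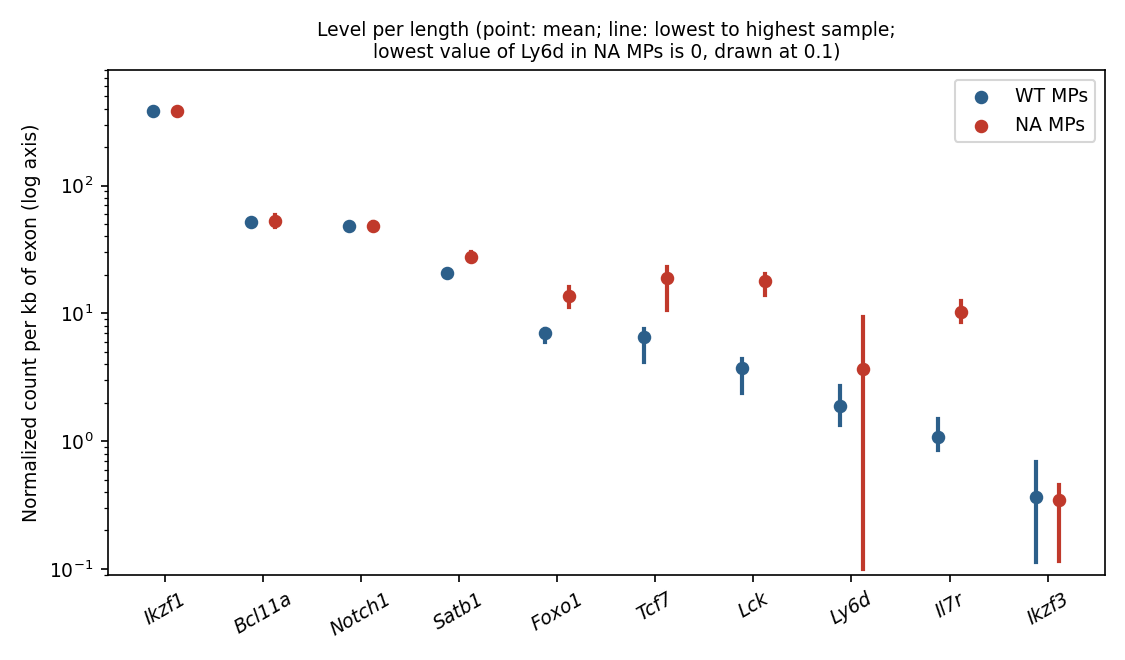
Normalized count per kb of exon on a log axis, as the mean of the group (point) and the range over its samples (line), for WT MPs (blue) and NA MPs (red), ordered by WT MPs. Ikzf1, Bcl11a and Notch1 coincide between the groups, and Il7r goes from 1.07 to 10.2.

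The genes did not share an order of the NA MP samples by their observed counts. Replicate 1 was the lowest NA MP sample for Il7r, Lck and Tcf7, at 84.7%, 78.1% and 56% of the NA MP mean. Replicate 4 was the lowest for Foxo1 and Satb1, at 82.3% and 91.9%. For each of these genes the exact Poisson interval of the lowest NA MP sample overlapped that of the next lowest. For Il7r these were 28.7 to 54.6 in replicate 1 and 31.2 to 58.1 in replicate 3. Counting error alone could thus change which sample was the lowest, and the orders do not separate the genes. The coefficient of variation over NA MPs was 30.3% for Tcf7, 16.7% for Il7r, 15.8% for Foxo1, 15% for Lck and 7.21% for Satb1. Over WT MPs it was 21.1% for Tcf7, 24.5% for Il7r, 8.60% for Foxo1, 21.3% for Lck and 5.16% for Satb1.

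**Figure D4:**
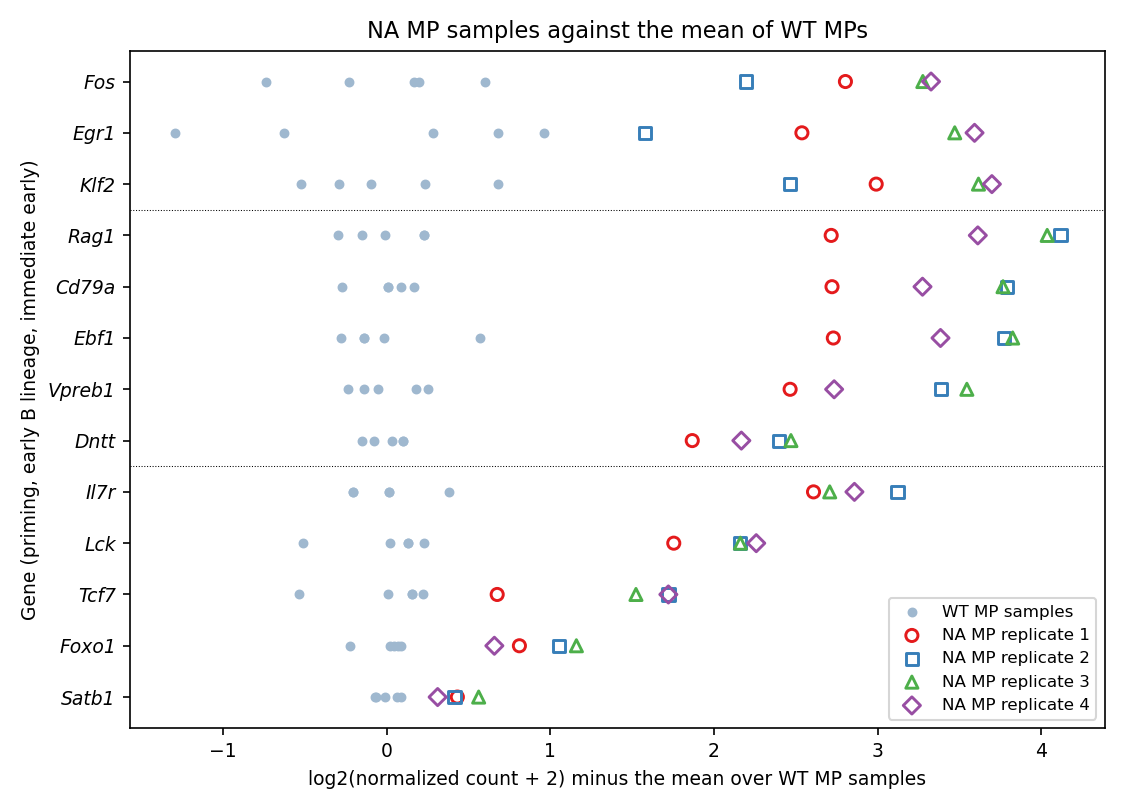
Log2 of the normalized count plus 2, relative to its mean over WT MPs, for each sample, with priming genes at the bottom, early B lineage genes in the middle and immediate early genes at the top. NA MP replicate 1 is the lowest NA MP sample for the early B lineage genes, and replicate 2 for Fos, Egr1 and Klf2, while Foxo1 and Satb1 are lowest in replicate 4.

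The other genes of the IL-7 receptor pathway moved less than Il7r. Of 11 tested genes, 7 were higher and 0 lower in NA MPs, with a median log2 fold change of 0.17 beside a median of -0.001 over all tested genes. Il2rg, the gamma chain that pairs with the IL-7 receptor, had normalized counts of 359, 331, 342 and 365 in NA MPs and between 258 and 280 in WT MPs (log2 fold change 0.38). Crlf2, which pairs with Il7r in the receptor for TSLP, rose by 0.69, and its samples lay between 450 and 504 in NA MPs and between 264 and 344 in WT MPs. Jak3 (0.48), Stat5a (0.17) and the survival gene Mcl1 (0.48) were higher too, whereas Jak1 (-0.02) and Bcl2 (0.04) did not pass the threshold. Il7 itself, made by stromal cells, was between 0 and 3.99 in all samples.

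Notch pathway genes moved in both directions. Of 17 tested genes, 5 (29.4%) were higher and 4 (23.5%) lower in NA MPs, and their median was 0.04 log2 units. All tested genes moved in both directions too, 17.9% higher and 16.3% lower. A difference between the Notch list and these shares was not tested. Jag1, a Notch ligand, had normalized counts of 0, 0, 2.01 and 2 in NA MPs and of 21, 19.9, 16, 19 and 20 in WT MPs. NA MPs had lost nearly all Jag1 counts, and WT MPs were 19.1-fold higher by their summed counts (95% counting interval 7.23 to 71.6). Heyl, a target of Notch, had 22.1, 54.1, 38.1 and 20 in NA MPs and between 0.998 and 3.99 in WT MPs, and was 16.8-fold higher in NA MPs (95% counting interval 8.87 to 35.9). Jag1 and Nrarp passed the filter only through WT MPs, and Heyl, like Bst1 and Spib, only through NA MPs. Another target, Hes1, was too low to be tested, with 14, 21.1, 27.1 and 10 in NA MPs and between 3.99 and 6.99 in WT MPs. Ptcra and Dtx1 were between 0 and 1 in all samples. Of the targets that were tested, Nrarp (-0.76) and Myc (-0.10) were lower in NA MPs, with 8.02, 20.1, 11 and 12 of Nrarp in NA MPs and between 11 and 29 in WT MPs, where the groups overlapped. The fringe gene Mfng (0.35) and the coactivator gene Maml1 (0.25) rose, whereas Lfng (-0.34), another fringe gene, was lower, with overlapping groups. Jag2 (0.56) passed the threshold but did not with DESeq2 (adjusted p = 0.0664) or without NA MP replicate 2 (adjusted p = 0.0699 from edgeR), and its adjusted p ran from 0.00623 to 0.0699 over all alternatives, edgeR and DESeq2. Notch2, with a log2 fold change of 0.04, and Rbpj, the DNA-binding partner of Notch, with 0.09, did not pass it.

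The families of the transcription factors were short lists. Of 2 tested relatives of Ikaros, 1 was higher (median 0.09), Ikzf2, with 301, 282, 290 and 330 in NA MPs and between 191 and 260 in WT MPs (log2 fold change 0.35). The other, Ikzf5, had a log2 fold change of -0.17 and passed the threshold without WT MP replicate 1 or with library size as the only scaling, so that the count became 2. Among 4 tested partners of TCF-1, 1 was higher and 1 lower, with a median of 0.47. Of the 4, 2 (Lef1 and Tcf7l1) passed the filter only through NA MPs, and 0 of the other 2 were higher. Lef1, the closest relative of Tcf7, had normalized counts of 49.1, 96.2, 106 and 69.2 in NA MPs and of 8.98, 3.99, 6.99, 12 and 8.98 in WT MPs, which is 3.27 log2 units (standard error 0.27, edgeR adjusted p = 1.16e-08). Lef1 reached the filter's minimum in 4 NA MP samples and in 1 WT MP sample, so that, as for Il7r, it was tested only because NA MPs were high. Like Tcf7, Lef1 was lowest among NA MPs in replicate 1. Ctnnb1, which encodes beta-catenin, fell by 0.11. Bcl11b, the paralog of Bcl11a that acts in T cell commitment, was too low to be tested and lay between 2 and 6.02 in NA MPs and between 0 and 3 in WT MPs.

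Of 8 tested Foxo factors and genes that Foxo1 is known to activate, 6 were higher and 0 lower in NA MPs, with a median of 1.28. Of the 6, 3 (Rag1, Rag2 and Blnk) also belong to the B commitment list, as do Lef1 and Dntt of other lists, so these counts and medians are not independent, and the 3 raise the median. Foxo3 (-0.002) and Foxo4 (-0.05) did not pass the threshold, so that of the tested Foxo genes Foxo1 was the member called. S1pr1, which guides the exit of lymphocytes from tissues, rose by 0.71. Rag1, of the recombinase that cuts antigen receptor genes, had normalized counts of 143, 382, 361 and 269 in NA MPs and between 16 and 24 in WT MPs (3.82). Rag2 had 44.1, 57.1, 50.1 and 53.1 in NA MPs and between 8.98 and 18 in WT MPs (1.84), and Blnk, a B cell adaptor, rose by 2.65. Rag1 and Rag2, neighbours on the chromosome, differed in how NA MP samples varied, with replicate 1 far below the rest for Rag1 and close to the rest for Rag2. Klf2 (3.28), with 261, 180, 403 and 427 in NA MPs and between 20.9 and 50.9 in WT MPs, is also an immediate early gene and was lowest in NA MP replicate 2.

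Kinases and partners of Lck were followed next. Of 7 tested genes, 6 were higher and 0 lower, with a median of 0.14. Fyn, the other Src kinase of T cells, rose by 0.62, with 316, 290, 301 and 274 in NA MPs and between 169 and 212 in WT MPs. Ptprc (0.26), which encodes the CD45 phosphatase that activates Lck, Csk (0.12), which restrains it, and Syk (0.14) changed little but passed the threshold. Fgr (0.77) did not pass with DESeq2 (adjusted p = 0.107), nor without NA MP replicate 2 (adjusted p = 0.0806 from edgeR) or WT MP replicate 1 (adjusted p = 0.0869 from edgeR), with a range from 0.0129 to 0.107 over the alternatives. The T cell receptor kinase Zap70 was between 0 and 3.01 in all samples. Of 3 tested Ly6 genes, 2 were higher, with a median of 0.24, among them Ly6e (0.34), and Ly6a, which encodes Sca1 of the sorting gate, lay between 17 and 23.1 in NA MPs and between 12 and 22.9 in WT MPs.

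Of 14 other tested genes of early lymphoid progenitors, 9 were higher and 2 lower in NA MPs, with a median of 0.16. Dntt, which adds nucleotides at antigen receptor joints, had normalized counts of 382, 552, 582 and 471 in NA MPs and between 92.8 and 111 in WT MPs (log2 fold change 2.26). Bst1, a surface enzyme of pre-B cells, had 16.1, 35.1, 33.1 and 33.1 in NA MPs and between 0.998 and 5.99 in WT MPs, and was 9.80-fold higher by summed counts (95% counting interval 5.70 to 18.1). Both were lowest in NA MP replicate 1. Erg (0.50) and Flt3 (0.43), whose product marks MPPs and lymphoid progenitors, rose less, and Zfp521, an antagonist of Ebf1, fell by 0.77. Il2ra, of later lymphoid stages, was under the filter, between 0 and 2 in all samples.

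Markers of committed lymphoid cells were counted in the same way. Of 15 tested B commitment genes, 14 were higher and 1, Cd24a, was lower, with a median of 3.27, or of 3.23 with Pax5, nearly absent from WT MPs, at the lower end of its counting interval. Of the 15, 5 (Ebf1, Pax5, Lef1, Vpreb3 and Pou2af1) passed the filter only through NA MPs, which favours a higher call, and 9 of the other 10 were higher. Summed over the whole list of 16 genes without the abundant Cd24a, normalized counts were 1616, 2904, 2930 and 2198 in NA MPs and 411, 444, 419, 408 and 432 in WT MPs. NA MP replicate 1 again had the lowest sum. Dntt was the most abundant of these genes in each NA MP sample. In each WT MP sample it was Cd79b (0.76), with 152 to 173 beside 92.8 to 111 for Dntt. Ebf1 had 78.2, 163, 170 and 124 in NA MPs and between 7.98 and 16 in WT MPs (3.67), and Cd79a, of the B cell receptor, had 109, 232, 228 and 161 against 12 to 17 (3.60). Pax5, the B lineage commitment factor, was 15.4-fold higher in NA MPs by summed counts (95% counting interval 8.73 to 29.5). None of the defining genes of this list was at 0 in NA MPs. The part of B lineage cells in the higher counts of Il7r, Foxo1, Tcf7 and Lck was not tested.

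Genes of later B cells were mostly too low to be tested (6 of 9). Over all tested genes 17.9% were higher in NA MPs, and a difference from the B commitment list was not tested. Of 3 tested mature B cell genes, with a median of -0.08, 1 was higher, Cd22, and that call was lost with DESeq2, without NA MP replicate 2 and without NA MP replicate 3, so that the count became 0. Ms4a1, which encodes CD20, was between 0 and 1 in all samples. The sum of all 9 genes of the list, mostly Cd74, was 341, 505, 614 and 602 in NA MPs and between 499 and 597 in WT MPs.

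T cell genes were mostly near the detection limit. Of 16 genes, 4 were tested and 3 were higher, with a median of 1.37, although 2 of the 4, Thy1 among them, passed the filter only through NA MPs, and Cd3e and Cd3g had 0 counts in all 9 samples. Cd3d was between 0 and 2 and Gata3 between 0 and 9.98. Thy1 had 79.2, 67.2, 81.2 and 75.2 in NA MPs and between 6.99 and 16 in WT MPs (2.85), and the adaptor gene Lat, downstream of Lck, rose by 0.75. The sum of all 16 genes of the list was 258, 241, 258 and 227 in NA MPs and between 96.8 and 135 in WT MPs, with Lat the most abundant. Unlike Lck, Thy1 was not lowest in NA MP replicate 1.

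Of 6 tested genes of NK and innate lymphoid cells, 3 were higher, a count that became 5 with no filter on low counts, with a median of 0.25 over the 6. Gzmb had 383, 272, 275 and 275 in NA MPs and between 54.9 and 63.9 in WT MPs (2.33), and it is also a mast cell and basophil gene. Ncr1 was between 0 and 2.99 in all samples. The sum of all 14 genes of the list, mostly Nkg7 (0.17), was 2691, 2479, 2571 and 2468 in NA MPs and between 1965 and 2109 in WT MPs. Of 6 tested genes of plasmacytoid dendritic cells, 5 were higher, with a median of 0.37, among them Irf7 (0.57), Tcf4 (0.54) and Runx2 (0.20). Spib, which B cells share, was 9.54-fold higher by summed counts (95% counting interval 5.55 to 17.6), and Siglech was between 0 and 1. The sum of all 12 genes of that list was 1909, 1932, 2154 and 1949 in NA MPs, where Tcf4 was the most abundant, and between 1595 and 1673 in WT MPs, where Runx2 was.

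**Figure D5:**
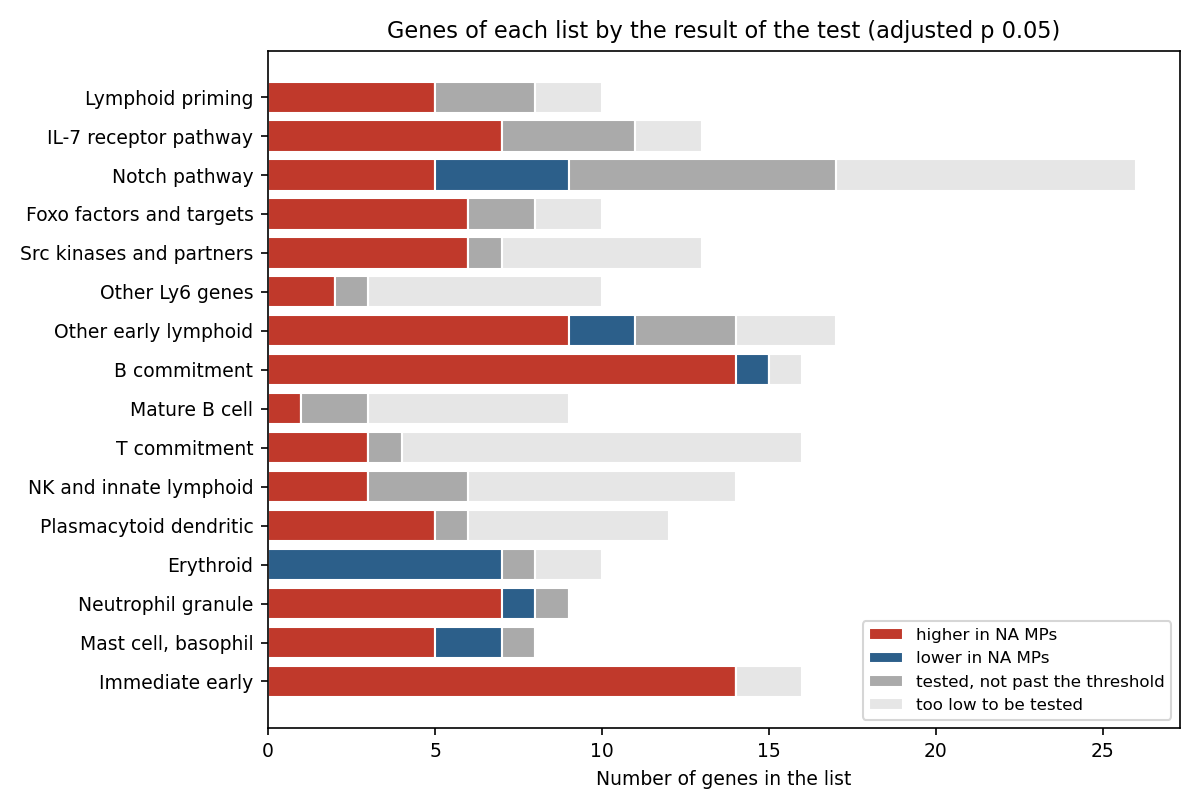
Number of genes in each list that were higher in NA MPs (red), lower (blue), tested without passing the threshold (grey) or too low to be tested (light grey). Of the 10 lymphoid priming genes 5 were higher, beside 14 of 16 B commitment genes, while 12 of 16 T commitment genes were too low to be tested.

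Other lineages and an early response also moved between the groups. Of 8 tested erythroid genes, 7 were lower and 0 higher, with a median of -0.90, among them Epor (-0.99) and Klf1 (-0.81). The sum of all 10 genes of the list was 1473, 1135, 1201 and 1498 in NA MPs and between 2466 and 2935 in WT MPs, with Ermap (-1.36) the most abundant. Of 9 tested neutrophil granule genes, 7 were higher and 1 lower, with a median of 0.18, and the 8 calls became 5 with DESeq2 or without WT MP replicate 2. Their sum, mostly Mpo, was 158040, 174640, 171760 and 164770 in NA MPs and between 153420 and 159660 in WT MPs. Of 8 tested mast cell and basophil genes, 5 were higher and 2 lower, with a median of 0.61. Cpa3 (0.93), Ms4a2 (1.39) and Fcer1a were among those higher. The 2 lower were Il1rl1 (-0.38) and Hdc (-0.24), without overlap of the groups. Prss34 (-0.44) did not pass the threshold. The sum of that list was 4535, 4156, 4125 and 3962 in NA MPs and between 2898 and 3154 in WT MPs, with Cpa3 the most abundant in each NA MP sample and Hdc in each WT MP sample. Of 4 tested genes of the gate, 2 were higher, with a median of 0.25. They were Ptprc and Itgam (0.29), of the lineage antigen Mac1, and for Itgam the groups overlapped.

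All 14 tested immediate early genes were higher in NA MPs, with a median of 2.42. The sum of all 16 genes of the list was 20092, 13793, 28311 and 30336 in NA MPs and between 2990 and 6308 in WT MPs, with Jun the most abundant. NA MP replicate 2 had the lowest sum and replicate 4 the highest. Among NA MPs, Il7r was highest in replicate 2 and Lck in replicate 4, and Tcf7 was at 60.1 in both. The B commitment sum without Cd24a was 2904 in replicate 2 and 2930 in replicate 3. For Klf2, which is in this list and among the Foxo1 targets, the order of the NA MP samples was that of the sum of the list. The part of these genes and of the other cell types in the results for the lymphoid priming genes was not tested.

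Genes with the most similar profiles were looked for among the 11966 tested genes by the Euclidean distance of log2 CPM (counts scaled to library size), centred over the 9 samples. Nearest to Il7r was Ednra, an endothelin receptor gene, at a distance of 0.725, with 40.1 to 53.1 normalized counts in NA MPs and 2.99 to 7.99 in WT MPs. ENSMUSG00000081448, which has no symbol in the table used, followed at 0.797, and Pbx3, of the TALE homeobox family, at 0.808. Nearest to Lck was Rag2, at 0.627, followed by H2afy2, a macroH2A histone gene, at 0.656 and Slc15a2, a peptide transporter gene, at 0.727. Slc15a2 had 89.2 to 112 normalized counts in NA MPs and 18 to 27.9 in WT MPs. No such search was made for Ly6d, which was under the filter.

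Some counts are uncertain because annotated exons overlap. In GENCODE M21 Lck shares 25 bases with a microRNA gene on its strand, Bcl11a 316 and Foxo1 674 bases with a gene on the other strand, Satb1 128 and 156 bases and Notch1 414 and 1068 bases with a pair of genes each. The library kit does not mark the strand, so reads of these stretches cannot be assigned to either gene. No overlap was found for Il7r, Tcf7, Ikzf1, Ikzf3 and Ly6d.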

How the data were processed

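The authors converted the NextSeq reads of TruSeq RNA libraries with bcl2fastq and estimated expression with RSEM. The submitters' processing notes also name DESeq2 and the mm10 build, and the annotation and versions are not given in the sources used here. They deposited the expected count of each of 37980 Ensembl genes in 9 samples, without normalization between samples, and 32916 of these identifiers matched a symbol. Expected counts were rounded, and edgeR 4.0.16 in R 4.3.3 was used with TMM normalization, filterByExpr (minimum count 10, which kept 11966 of 20102 genes with any count), the robust quasi-likelihood test of NA MPs against WT MPs, and Benjamini-Hochberg adjustment over all tested genes at 0.05. The script was tested on simulated data. Normalized counts are rounded counts scaled to a mean effective library of 6643411. At this depth 3 counts correspond to 0.445 to 0.454 CPM, counting error only. Where a group averaged 3 counts or fewer, ratios of summed counts have exact conditional intervals. The list medians kept such genes at their fitted values, and with them at their bound only that of the B commitment list moved. Coordinates, exon lengths and overlaps came from GENCODE M21 (GRCm38).

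Besides the 10 priming genes, 19 lists of pathway, family and marker genes were followed by counts and medians, with no test of a list. Members and lists were chosen with earlier results of these data known. The genes named were the 10 genes, up to 5 called genes per list whose groups did not overlap by largest change, or up to 2 of the most counted where none was called, defining markers, Hoxa10, Nup98 and the 3 nearest profiles of Il7r and of Lck. Other genes named (among them Hes1, Notch2, Rbpj, Ikzf5, Foxo3, Foxo4, Nrarp, Myc, Jak1, Bcl2, Il7, Ptcra, Dtx1, Zap70, Il2ra, Cd22, Ms4a1, Cd24a, Cd79b, Vpreb3, Pou2af1, Cd74, Itgam, Jun, Egr1, Prss34 and Hdc) were chosen after their values were seen. Results of some genes and of 1 list are not reported here. Exons of Lef1, Pax5, Rag1, Rag2, Jak3, Il2rg, Bst1, Ikzf2, Stat5a, Maml1, Ctnnb1, Lat, Irf7, Runx2, Cd22, Nrarp, Mpo and others overlap another annotated gene, so their counts are uncertain. Alternatives were RLE or library size normalization, no filter, DESeq2 1.42.0, a replicate block, counts not rounded and leaving out each sample.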

Additional observations from a re-analysis of the deposited data

Results flagged for a closer look

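The check for outlying samples left out the genes chosen after their values were seen. In 12 of 176 groups of samples of the named genes, a sample lay far from the others of its group, where chance flags about 1 in 20 groups, or 8.8 of them. Among the lymphoid priming genes this held for Foxo1 only, with 51.89 normalized counts in WT MP replicate 4 against 61.9 to 64.9 in the other WT MP samples.

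Among NA MPs, replicate 1 was low for Bst1, with 16.05 normalized counts against 33.1 to 35.1, and high for Gzmb, with 383.1 against 272 to 275. NA MP replicate 2 was low for Ly6a, with 17.04 against 22.1 to 23.1, and had 2.005 normalized counts of Cd3d where the other NA MP samples had 0. NA MP replicate 4 was low for Csk, with 1510 against 1629 to 1647.

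Among WT MPs, replicate 1 was low for Camp (108.8 against 160 to 175), replicate 3 was low for Irf7 (36.93 against 41.9 to 42.9), replicate 4 was high for Ebf1 (15.97 against 7.98 to 9.98), and replicate 5 was high for Runx2 (528.1 against 481 to 489). For Siglech, WT MP replicate 3 had 0.9982 where the others had 0, and for ENSMUSG00000081448, WT MP replicate 4 had 0 where the others had a single count. No cause was tested for any of these values.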

How the results depend on the processing

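The calls of Il7r, Lck, Tcf7, Foxo1 and Satb1 held under all 15 alternatives, with log2 fold changes of 3.10 to 3.36, 2.12 to 2.35, 1.41 to 1.74, 0.864 to 1.03 and 0.387 to 0.471. Notch1, Ikzf1 and Bcl11a passed the threshold under none of the 15, and their small log2 fold changes turned sign in some. Over the 9 fits without a sample, Notch1 ranged from -0.0364 to 0.0328 and was positive without NA MP replicate 1 (0.0328) or WT MP replicate 3 (0.00916), 4 (0.0052) or 5 (0.00397). Ikzf1 ranged from -0.0334 to 0.00815 and was positive without NA MP replicate 3 (0.00815) or WT MP replicate 2 (0.00229). Bcl11a ranged from -0.00962, without NA MP replicate 1, to 0.089. The cause was not tested.

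With a replicate block, differential expression of all tested genes gave 3703 calls in place of 4093, 5 of the 10 priming genes were higher as before, and Notch1 had a log2 fold change of 0.00427. Deviations of same-numbered samples correlated between -0.0235 and 0.0558, so that replicate numbers marked no strong shared difference. These correlations cannot show whether same-numbered samples were handled together.

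Over all tested genes, 3038 calls were made with DESeq2 (1646 higher, 1392 lower), 4105 with RLE, 4207 with library size only (1876 higher, 2331 lower), 4299 with no filter and 3632 to 3942 without a sample. Calls in the Ikaros family went from 1 to 2 with library size only and were 1 to 2 over the 9 fits without a sample. NK and innate lymphoid calls went from 3 to 5 with no filter. Mature B cell calls went from 1 to 0 with DESeq2 and were 0 to 1 without a sample, and neutrophil calls went from 8 to 5 with DESeq2 and were 5 to 7 without a sample. Of 1215 refits of 81 named genes, 1194 kept direction and side of the threshold, 13 (Mpo, Jag2 and Fgr) no longer passed it and 8 turned sign. This tally leaves out the genes chosen after their values were seen, such as Cd22 and Ikzf5, whose calls changed as given above. Depth limits Ly6d, Ikzf3 and the T cell genes, at or near 3 counts.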
